A study of Homo sapiens with 4 samples.

Results

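Motile cilia and their axonemes were examined through 45 genes in ES2 cells, an established human ovarian cancer (OCa) cell line, treated with vehicle or with liquiritigenin (Liq), a plant flavanone that the study uses as an ERβ agonist. The 45 symbols were looked up among the 23228 genes of the count tables. Of these, 44 were found as written and DRC1 was found under its older symbol CCDC164, while WDR66 is the older symbol of CFAP251, ARMC4 that of ODAD2 and LRRC6 that of DNAAF11. The list was drawn up with the Liq-to-vehicle differences of these data known, with MYCBPAP, AK7 and WDR66 at its head. For this reason the differences of its members are given as a description, with no p-values. Total RNA from 2 vehicle and 2 Liq samples was sequenced after 24 h of treatment, and all 4 samples were ES2 cells grown in phenol red-free medium with charcoal-stripped serum. The labels do not say whether samples of 1 group came from separate cultures, so p-values measure only the spread between these samples, which may be technical. ES2 is a single line, and no other OCa line was sequenced here.

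Motile cilia are hair-like organelles that beat to move fluid over epithelia such as that of the Fallopian tube, and the sperm tail is built on the same plan. The core of the organelle, the axoneme, is a ring of microtubule doublets around a central pair. Outer and inner dynein arms on the doublets are the motors, radial spokes and nexin links regulate them, and tektins lie inside the doublet walls. The transcription factors FOXJ1 and RFX2 and RFX3 switch on most of these genes in multiciliated cells. RFX factors bind a promoter element called the X-box.

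Each library held 34573053 to 48933893 reads on genes. Levels are given as CPM, counts scaled to library size after TMM normalization, and 3 counts, taken as the smallest level that can be told from 0, corresponded to 0.0598 to 0.0844 CPM. Among 9 genes chosen as markers of OCa lines, VIM, KRT7, KRT18 and KRT8 had at least 871 counts in every library, whereas MUC16, KRT19 and EPCAM had at most 3. Samples of 1 group differed by more than sampling noise (chi-square of 6.56 and 11.6 per degree of freedom) and less than samples of different groups (60.9 to 74.6). In a bulk RNA sample, fewer cells of a kind and less RNA per cell cannot be told apart.

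In ES2 cells some axonemal genes were well expressed, while defining genes of motile cilia were at or near 0 counts. Of the 45 genes, 5 had 0 counts in all 4 libraries, 15 had at most 3 counts in every library, and 23 passed the filter on low counts and were tested. FOXJ1, the master regulator of motile ciliogenesis, had 3 counts in Liq replicate 1 and 0 in the other 3 libraries. The genes with 0 counts throughout were DNAH9 (an outer arm heavy chain), DNAI1 (an outer arm intermediate chain), RSPH1 (a radial spoke head protein), SPAG6 (a central pair protein) and TEKT1 (a tektin). A count of 0 allows a level of up to 0.0598 to 0.0844 CPM, depending on the library. In the outer arms, the radial spokes and the central pair, other genes of the same structure were expressed, whereas all 4 tektins had at most 6 counts.

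Among the expressed members, levels were compared per kilobase of the canonical GENCODE transcript. In vehicle samples IQCG, a subunit of the nexin-dynein regulatory complex, was the highest at 16.1 ± 0.556 CPM per kb (SD, n = 2). It was followed by ARMC4, needed to dock outer dynein arms, at 11.9 ± 0.425, by SPAG16, a central pair protein, at 9.41 ± 0.923, and by WDR66, a protein of the radial spoke base, at 5.93 ± 0.108 CPM per kb (SD, n = 2). These 4 levels lay further apart than their SDs. The light chain gene DNAL1 came next, at 1.78 CPM per kb. The regulator RFX3 was at 0.829 CPM per kb in vehicle samples, and RFX2 at 0.165. The transcript lengths come from an annotation other than the one used for counting, so this order is approximate.

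**Figure D1:**
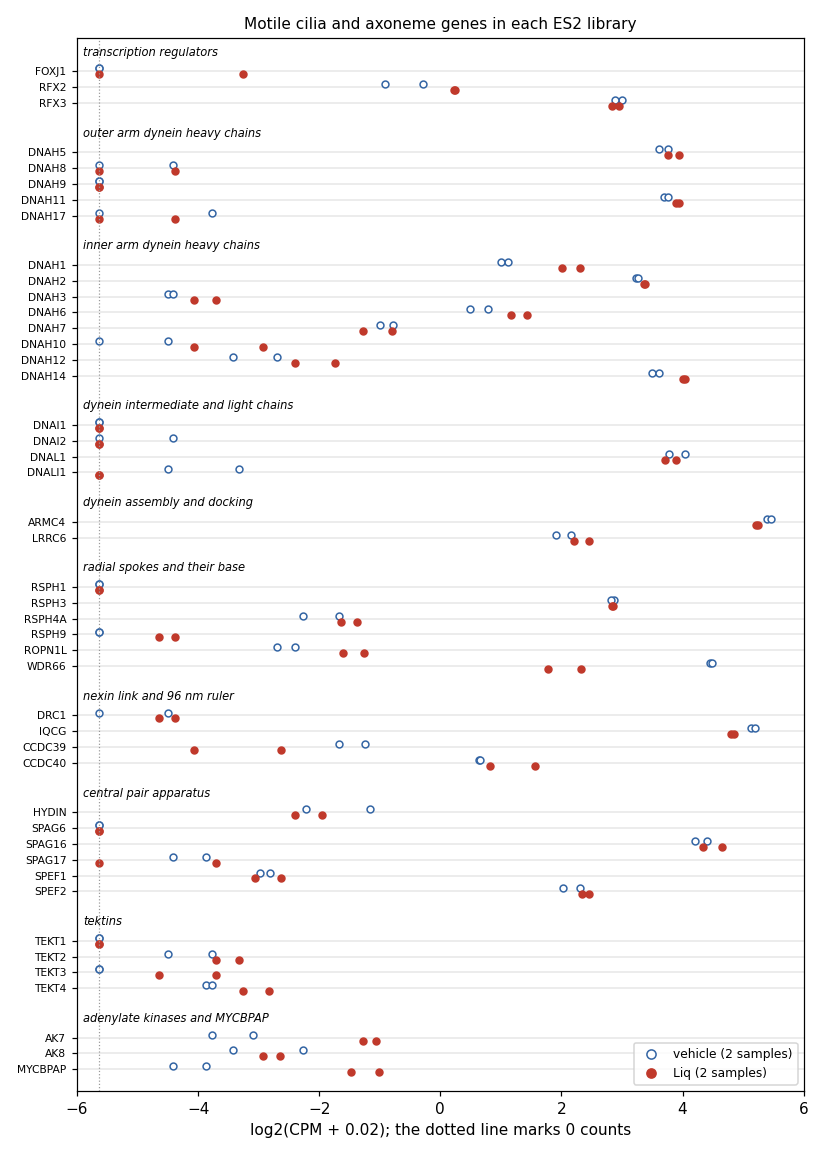
Level of each of the 45 motile cilia and axoneme genes, as log2(CPM + 0.02), in the 2 vehicle (open) and 2 Liq (filled) samples, grouped by part of the axoneme. The dotted line marks 0 counts. The tektins and FOXJ1 are at the left, IQCG and ARMC4 are at the right, and WDR66 shifts to the left with Liq whereas AK7, MYCBPAP and DNAH1 shift to the right.

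A gene was called where edgeR's quasi-likelihood test across 13546 genes gave a Benjamini-Hochberg adjusted p-value under 0.05 and the change reached 1.5-fold. Of the 23 tested members, 5 were called up (MYCBPAP, AK7, DNAH1, RFX2 and DNAH6) and 2 were called down (WDR66 and CCDC39). Of all tested genes, 4.29% were called up and 2.16% were called down. Most of the members were weakly expressed, with 15 of the 23 among the 4516 tested genes of lowest mean level (at most 13 CPM), where 11% were called up and 3.79% were called down. Because the members were chosen with this contrast known, their count is a description and is not set against these shares. The 23 tested members had a median log2 fold change of 0.21. That of all tested genes was 0.01, and that of the 4516 genes of lowest level was 0.15. Both Liq samples were above both vehicle samples for 13 of the 23 and below them for 4. Among all tested genes, 31.5% and 30.2% were separated in these ways. For the reason just given, the median and these counts of members are a description too. At an adjusted p-value under 0.05 with no fold-change threshold, DNAH14 was added to the genes called up and IQCG to those called down, where 12.6% of all genes were up and 11.3% down. Of the 23, 5 passed the filter through 1 group only, MYCBPAP, AK7, ROPN1L and RSPH4A through the Liq samples and CCDC39 through the vehicle samples. The genes that passed through Liq are among the 13 with both Liq samples above. CCDC39 is among the 4 with both below. With offsets that follow the expression level, 356 genes were called up and 393 down across the table, in place of 581 and 293, and RFX2 and DNAH6 were no longer among the calls.

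**Figure D2:**
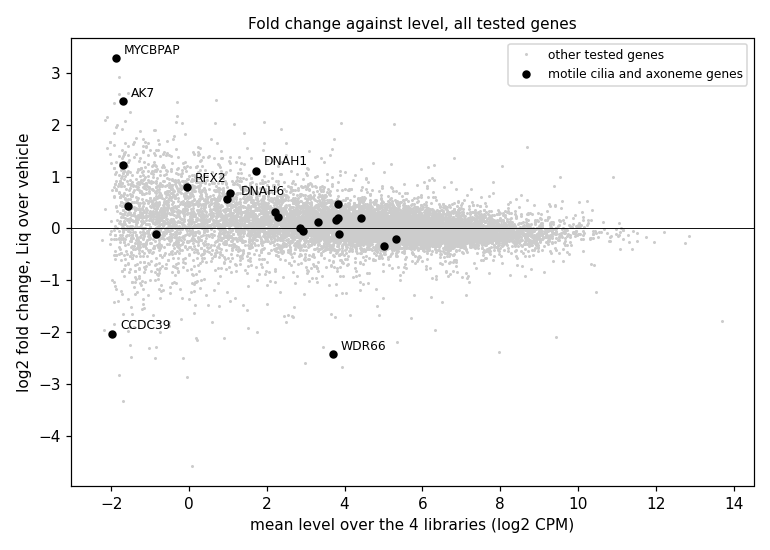
Log2 fold change (Liq over vehicle) against mean level (log2 CPM) for the 13546 tested genes, with the 23 tested motile cilia and axoneme genes in black and the 7 called ones named. MYCBPAP, AK7 and CCDC39 lie at the low end of the level axis, where fold changes spread widest, while WDR66, at -2.42, and DNAH1, at 1.10, had higher levels.

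The summed level of the 45 genes was 209 and 220 CPM in the vehicle samples and 198 and 205 CPM in the Liq samples, while single structures of the axoneme moved in both directions. The 8 inner arm heavy chains summed to 24.9 and 26 CPM with vehicle and to 34.4 and 34.5 CPM with Liq. The 6 radial spoke genes summed to 29.6 and 29.7 CPM with vehicle and to 12.9 and 11.3 CPM with Liq, and most of the difference was in WDR66. The 3 genes AK7, AK8 and MYCBPAP together reached only 0.219 and 0.267 CPM with vehicle and 0.984 and 0.936 CPM with Liq. These sums are not per length and describe the samples without a test.

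WDR66 showed the largest decrease. The gene, on chromosome 12 from 122356498 to 122441833 (GRCh37, GENCODE annotation), encodes the radial spoke base protein CFAP251. WDR66 counts were 897 and 838 with vehicle and 178 and 170 with Liq. Both Liq values lay far below the vehicle values. Its level was 22.1 ± 0.401 CPM with vehicle and 4.2 ± 1.14 CPM with Liq (SD, n = 2), which was a 5.37-fold decrease (log2 fold change -2.42, SE 0.13). It was called down under each alternative normalization, filter and test and without each of the 4 samples.

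CCDC39, the other gene called down, encodes part of the molecular ruler that sets the spacing of the inner dynein arms and nexin links. It was near the detection limit, with 12 and 15 counts under vehicle and 5 and 2 under Liq. The groups did not overlap, and the ratio of summed counts after scaling was 0.237, with a 95% interval of 0.0873 to 0.559 that covers counting error only. The log2 fold change was -2.03 (SE 0.62), and the call was lost without vehicle replicate 2 (-1.79) and without Liq replicate 2 (-1.27). Of its exonic bases on chromosome 3 (180320646 to 180402730, GRCh37), 39.3% are shared with exons of other annotated genes, and reads there may have been left out of the count. Its partner in the ruler, CCDC40, had 63 and 58 counts in vehicle and 105 and 88 in Liq, a log2 fold change of 0.57 (SE 0.23). CCDC40 was not called, except in the fit without Liq replicate 2 (0.94).

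MYCBPAP, which encodes a protein that binds the MYC-binding protein MYCBP, had the largest increase. It lies on chromosome 17 from 48585786 to 48608862 (GRCh37). Its counts were 2 and 1 with vehicle and 17 in each Liq sample, so the groups were separate. Its level was 0.0377 ± 0.0155 CPM with vehicle and 0.408 ± 0.0985 CPM with Liq (SD, n = 2). The ratio of summed counts was 10.4, with a 95% counting interval of 3.27 to 52.8, since the 2 vehicle samples held only 3 counts between them. The direction held in every alternative fit that kept the gene, which the filter of 10 counts in every sample removed. MYCBPAP passed the main filter through the Liq samples only, so this is not read as support. The size depended on the prior count. The log2 fold change was 3.28 (SE 0.69) at edgeR's default prior count and 2.36 at a prior count of 2.

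AK7 encodes an adenylate kinase of cilia. Its counts were 4 and 2 with vehicle and 14 and 23 with Liq. Both Liq values were above both vehicle values. The ratio of summed counts was 5.65, with a 95% counting interval of 2.36 to 16.4, and the log2 fold change was 2.45 (SE 0.58). The gene lies on chromosome 14 from 96858465 to 96955764 (GRCh37). The related kinase gene AK8 had 3 and 7 counts in vehicle and 4 and 7 in Liq and was not tested.

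DNAH1, an inner arm dynein heavy chain, was the most deeply counted of the genes called up. Counts of DNAH1 were 89 and 74 with vehicle and 176 and 201 with Liq, with no overlap. Its level was 2.07 ± 0.133 CPM with vehicle and 4.48 ± 0.668 CPM with Liq (SD, n = 2), which was a 2.14-fold increase (log2 fold change 1.10, SE 0.17). It was called up under each alternative normalization, filter and test and without each of the 4 samples. DNAH1 lies on chromosome 3 from 52350335 to 52434508 (GRCh37), and none of its exonic bases are shared with another annotated gene.

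DNAH6, another inner arm heavy chain, had 57 and 64 counts in vehicle and 79 and 135 in Liq. Its level was 1.55 ± 0.229 CPM with vehicle and 2.46 ± 0.331 CPM with Liq (SD, n = 2), and its log2 fold change was 0.68 (SE 0.21). The groups were separate, but the call was lost without vehicle replicate 1 (0.53) or Liq replicate 2 (0.53), and by DESeq2. Of the other inner arm heavy chains, DNAH14 had 465 and 456 counts in vehicle and 574 and 830 in Liq. Its log2 fold change of 0.48 (SE 0.10) was below 1.5-fold. DNAH2 had 385 and 357 counts with vehicle and 367 and 520 with Liq (0.13, SE 0.11), and DNAH7 had 23 and 18 with vehicle and 14 and 28 with Liq (-0.10, SE 0.36). Neither was called. DNAH3, DNAH10 and DNAH12 had at most 14 counts in any library and were not tested. Of these, DNAH12 had 3 and 5 counts in vehicle and 6 and 14 in Liq. The ratio was 2.29, with a 95% interval of 0.966 to 6.01 that covers counting error only.

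Of the outer arm heavy chains, only DNAH5 and DNAH11 were expressed, and neither was called. DNAH5, a gene often mutated in primary ciliary dyskinesia, had 560 and 458 counts in vehicle and 484 and 775 in Liq. DNAH11 had 531 and 506 counts in vehicle and 547 and 746 in Liq. Their log2 fold changes were 0.17 (SE 0.11) and 0.19 (SE 0.10). DNAH8, DNAH9 and DNAH17, the first and last of which are best known from sperm, had at most 2 counts in any library. Calls were made for 0 of 2 tested outer arm chains and, upward, for 2 of 5 tested inner arm chains. Of all tested genes 4.29% were called up, and of the 4516 of lowest level 11%. Those 4516 genes held 4 of the 5 inner arm chains and 0 of the 2 outer arm chains. The difference between the arms was not tested, and these counts of members are a description.

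Among the smaller dynein subunits and the factors that assemble and dock the arms, no gene was called. The light chain gene DNAL1 had 562 and 613 counts in vehicle and 464 and 747 in Liq, and its levels (log2 fold change -0.10, SE 0.11) overlapped between the groups. DNAI1, DNAI2 and DNALI1 had at most 3 counts in any library. ARMC4 had 1722 and 1649 counts in vehicle and 1321 and 1902 in Liq. After scaling, this was 43.0 ± 1.53 CPM against 37.5 ± 0.530 CPM (SD, n = 2), and the log2 fold change was -0.19 (SE 0.09). LRRC6, a dynein arm assembly factor, had 153 and 166 counts in vehicle and 164 and 275 in Liq, with a log2 fold change of 0.32 (SE 0.15).

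RFX2 was the only called gene among the transcription regulators. Counts of RFX2 were 33 and 19 with vehicle and 41 and 58 with Liq. Its level was 0.655 ± 0.209 CPM with vehicle and 1.15 ± 0.00189 CPM with Liq (SD, n = 2), and its log2 fold change was 0.80 (SE 0.29). The groups were separate, but the call was lost without vehicle replicate 2 (0.52), Liq replicate 1 (0.80) or Liq replicate 2 (0.80), and by DESeq2. RFX3, the paralog with the higher level, had 328 and 276 counts in vehicle and 275 and 357 in Liq. Its log2 fold change was -0.05 (SE 0.12) and its groups overlapped.

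In the radial spokes, only WDR66 was called. RSPH3, a spoke stalk protein that anchors protein kinase A, had 299 and 263 counts in vehicle and 256 and 359 in Liq, with a log2 fold change of 0.00 (SE 0.12). ROPN1L, another radial spoke gene, had 7 and 5 counts in vehicle and 11 and 20 in Liq. Its log2 fold change was 1.22 (SE 0.51) with separate groups, and it was not called. The spoke head gene RSPH4A had 12 and 7 counts in vehicle and 13 and 15 in Liq (log2 fold change 0.43, SE 0.47). RSPH1 and RSPH9 had at most 1 count in any library. Of the exonic bases of RSPH9, 26.7% are shared with exons of another annotated gene, and reads there may have been left out of its count.

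Of the nexin link genes, IQCG had 1439 and 1376 counts in vehicle and 996 and 1440 in Liq. Scaled to the libraries, its level was 35.9 ± 1.24 CPM with vehicle and 28.3 ± 0.483 CPM with Liq (SD, n = 2). The groups were separate, and the log2 fold change of -0.34 (SE 0.09) was below 1.5-fold. DRC1, the scaffold of the nexin link, had at most 1 count in any library.

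None of the 6 genes listed here under the central pair was called, and no tektin was. SPAG16 had 757 and 792 counts in vehicle and 717 and 1266 in Liq, and SPEF2, which takes part in central pair assembly, had 167 and 184 in vehicle and 194 and 252 in Liq. Their log2 fold changes were 0.21 (SE 0.11) and 0.22 (SE 0.15). HYDIN had 8 and 16 counts in vehicle and 6 and 12 in Liq, and is uncertain because a near-identical copy, HYDIN2, exists. SPEF1 had 4 or 5 counts in every library, SPAG17 at most 2, and TEKT2 and TEKT3 at most 4. TEKT4 had 2 counts in each vehicle sample and 3 and 6 in Liq. None of these was tested. Of the exonic bases of TEKT4, 58.7% are shared with exons of another annotated gene, and reads there may have been left out of its count.

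**Figure D3:**
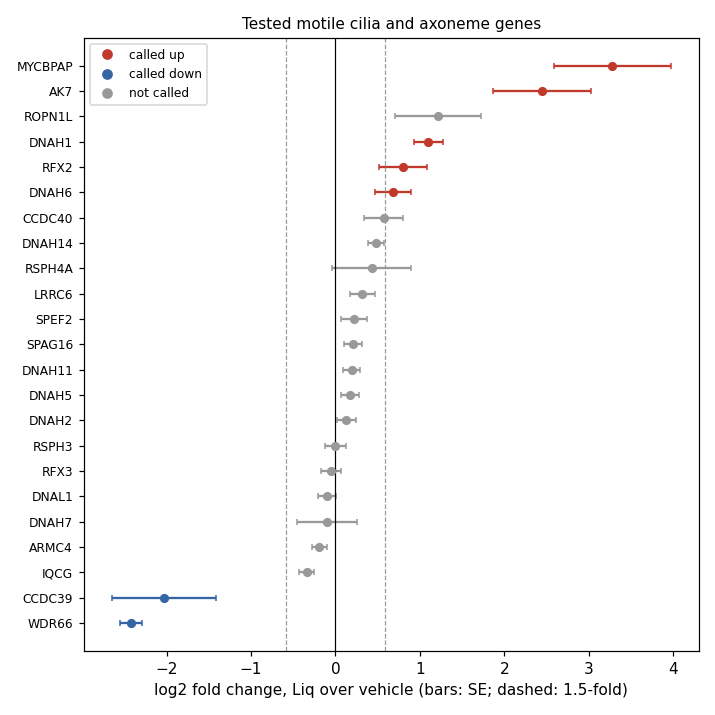
Log2 fold change (Liq over vehicle) with its SE for the 23 tested motile cilia and axoneme genes, in order of size, with dashed lines at 1.5-fold and colours for the calls. WDR66 and CCDC39 are at the bottom at -2.42 and -2.03, MYCBPAP and AK7 at the top at 3.28 and 2.45 with wide errors, and 16 genes are not called.

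The promoters of the members were examined for the elements of ciliary regulators, as a description with no test. RefSeq promoter sequences (GRCh38.p14, 250 bases before to 50 after the transcription start) were matched for 36 of the 45 genes, and not for DNAH17, DNAH3, FOXJ1, HYDIN, LRRC6, MYCBPAP, RFX2, RSPH1 and TEKT2. The 250 bases before the start of the 4 called genes with the largest fold changes in the table are shown 5′ to 3′ on the gene's strand, with capitals at each X-box core (GTTGCC, or GGCAAC for the opposite strand) and, in DNAH1, at a whole X-box-like palindrome. The window of CCDC39 lies inside the annotated gene, which has longer transcripts. Each sequence had 1 exact match in GRCh37, at chr14:96858215-96858464 (plus strand) for AK7, chr12:122356248-122356497 (plus strand) for WDR66, chr3:180397278-180397527 (minus strand) for CCDC39 and chr3:52350085-52350334 (plus strand) for DNAH1.
AK7: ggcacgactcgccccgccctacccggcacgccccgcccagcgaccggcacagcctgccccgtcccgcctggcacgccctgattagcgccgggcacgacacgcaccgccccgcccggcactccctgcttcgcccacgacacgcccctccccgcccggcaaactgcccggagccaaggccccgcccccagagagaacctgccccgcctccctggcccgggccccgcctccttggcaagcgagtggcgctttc
WDR66: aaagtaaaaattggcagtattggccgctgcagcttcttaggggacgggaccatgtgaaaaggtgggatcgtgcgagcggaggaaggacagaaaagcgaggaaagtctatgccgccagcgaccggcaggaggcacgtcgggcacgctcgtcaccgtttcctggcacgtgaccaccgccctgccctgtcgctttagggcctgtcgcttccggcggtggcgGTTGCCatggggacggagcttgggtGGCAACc
CCDC39: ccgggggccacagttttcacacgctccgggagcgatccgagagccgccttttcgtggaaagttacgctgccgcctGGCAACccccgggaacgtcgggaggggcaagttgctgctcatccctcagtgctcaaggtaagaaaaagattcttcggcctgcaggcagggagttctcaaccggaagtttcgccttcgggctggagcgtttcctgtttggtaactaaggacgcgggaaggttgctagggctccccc
DNAH1: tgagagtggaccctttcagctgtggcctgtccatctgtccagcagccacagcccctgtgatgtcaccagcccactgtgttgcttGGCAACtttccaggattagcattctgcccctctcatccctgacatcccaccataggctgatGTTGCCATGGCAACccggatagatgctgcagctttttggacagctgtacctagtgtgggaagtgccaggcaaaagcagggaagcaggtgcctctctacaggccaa

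DNAH1 held the palindrome GTTGCCATGGCAAC at position -105 from the start, which contains a core on each strand, and a further core at position -166. WDR66 held 2 cores facing each other at positions -32 and -7, and CCDC39 held 1 at position -175. AK7 held none in its window, which was 77.2% G or C. DNAH6, not shown, held 1 at position -76. Of the called genes with a sequence, 2 of the 3 called up and both genes called down had a core, as had 4 of the 15 tested genes that were not called. This split was not tested and is a description, because the list was drawn up with the contrast known. In addition, AK7 and CCDC39 passed the filter through 1 group only, and MYCBPAP and RFX2 had no sequence.

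The X-box core was found on either strand in 18 of the 36 member promoters (50%) and in 12.2% of all 27305 promoters of the same length. It was present in 8 of 20 tested and 10 of 16 untested members, among them DNAI1, SPAG6 and TEKT1, which had 0 counts throughout. The X-box-like palindrome (a core followed by its reverse complement, with free letters in the gap and at 1 place in each arm) was found in 2 of the 36, DNAH1 and SPAG16 (5.56%), against 0.458% of all promoters. The SPAG16 match read GTTGCCACGGTAAC at position -184. The forkhead motif GTAAACA was found in 3 of the 36 (8.33%) against 3.41% of all promoters. These are matches of letters, and binding was not measured.

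**Figure D4:**
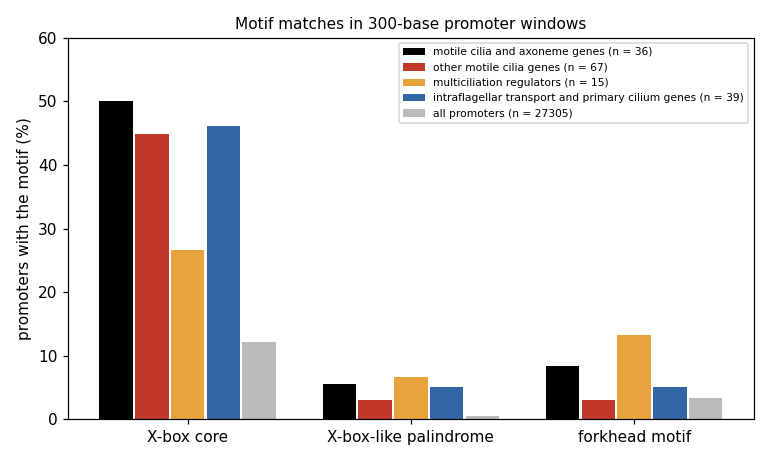
Share of promoter windows (300 bases, percent) with an X-box core, an X-box-like palindrome or a forkhead motif, for 4 ciliary gene lists and for all promoters. The core is in 50% of the motile cilia and axoneme promoters, 44.8% of other motile cilia genes and 46.2% of intraflagellar transport and primary cilium genes. It is in 26.7% of multiciliation regulators (4 of 15) and in 12.2% of all promoters.

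Genes of the same pathway outside the 45 were read from 3 further lists. Of 83 other motile cilia genes, 45 were tested, 6 were called up (13.3%) and 1 was called down, against 4.29% and 2.16% of all tested genes. Of the 45, 34 were among the 4516 genes of lowest level, where 11% of all genes were called up, so the share called up was near that of weakly expressed genes at large. Their median log2 fold change was 0.27, against 0.15 for all those 4516 genes. DNHD1, which encodes a dynein heavy chain domain protein, had 656 and 596 counts in vehicle and 1194 and 1410 in Liq, with a log2 fold change of 0.95 (SE of 0.10, adjusted p = 9.785e-08 from edgeR). WDR78, now DNAI4, an intermediate chain of an inner arm dynein, had 233 and 184 counts in vehicle and 363 and 568 in Liq, with a log2 fold change of 1.03 (SE of 0.13, adjusted p = 9.169e-07 from edgeR). In both genes all Liq values were above all vehicle values.

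The other genes called up in this list had lower counts. WDR96 (CFAP43) had 56 and 66 counts in vehicle and 98 and 159 in Liq (log2 fold change 0.94, adjusted p = 0.001057 from edgeR). The dynein assembly factor DNAAF3 had 7 and 11 counts in vehicle and 29 and 27 in Liq, a log2 fold change of 1.51. It passed the filter on low counts through the Liq samples only, as did 6 other tested genes of this list, so its call is not read as support, and it was lost without vehicle replicate 1 (1.16) or Liq replicate 1 (1.22) and by DESeq2. CAPS and LRRC48 (DRC3) had log2 fold changes of 0.78 and 0.97, with adjusted p-values of 0.02439 and 0.03715 from edgeR that passed 0.05 in the full data. The calls of CAPS and LRRC48 were lost in 3 of the 4 fits that left out a sample, with loess offsets and by DESeq2. The gene called down, CCDC19 (CFAP45), a protein inside the doublet wall, had 322 and 238 counts in vehicle and 108 and 152 in Liq, with a log2 fold change of -1.23 (SE of 0.15, adjusted p = 7.43e-07 from edgeR).

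Genes that start multiciliation, and genes of the primary cilium, the single immotile cilium of most cell types, were read in the same way. Of 16 multiciliation regulators, 10 were tested and 0 were called in either direction, by edgeR or by the DESeq2 Wald test, and 1 higher and 2 lower genes had an unadjusted p-value under 0.05. The smallest p-values were those of the centrosome gene CEP63 (log2 fold change 0.27, adjusted p = 0.018 from edgeR) and of E2F5 (-0.30, adjusted p = 0.02714 from edgeR), both below 1.5-fold. MCIDAS, an activator of the multiciliated programme listed as IDAS, had 226 and 227 counts in vehicle and 198 and 251 in Liq, and GMNC had at most 7 counts. All 44 genes of intraflagellar transport and the primary cilium were tested, and 1 was called up and 0 down by edgeR, with 0 calls by DESeq2. At an unadjusted p-value under 0.05 and any fold, 14 of the 44 were higher and 1 was lower, where 18.8% of all tested genes were higher and 17.3% lower, and whether the list differs from other genes was not tested. The called gene was KIF17, a ciliary kinesin, with 37 and 58 counts in vehicle and 69 and 104 in Liq (log2 fold change 0.73 with an SE of 0.24, adjusted p = 0.02804 from edgeR). That call was lost without vehicle replicate 1 (0.38) and without Liq replicate 2 (0.68). The regulators had a median log2 fold change of -0.04 and the primary cilium genes one of 0.06.

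**Figure D5:**
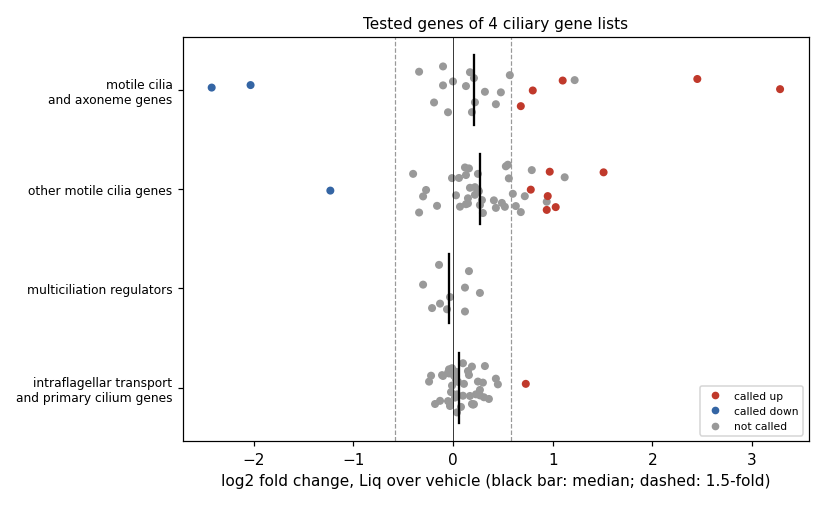
Log2 fold change (Liq over vehicle) of every tested gene in 4 ciliary gene lists, with the median as a black bar and dashed lines at 1.5-fold. The primary cilium genes lie close to 0 with KIF17 alone beyond 1.5-fold and called, the other motile cilia genes centre on 0.27, and the motile cilia and axoneme genes spread from -2.42 to 3.28.

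Markers of cell types other than OCa cells were read beside these results. Of 10 multiciliated cell markers outside the 45 genes, 4 had at most 3 counts in every library, and C20orf85 had 0. Of the 5 tested, 4 were among the 4516 genes of lowest level, and 2 were called up (CAPS and CDHR3). The share called up was 4.29% of all tested genes and 11% of those 4516, and a difference from these shares was not tested. The summed level of the 10 markers was 626 to 683 CPM in vehicle and 574 to 630 CPM in Liq. Of this, TUBB4B, a tubulin that most cells express, made up 617 to 674 and 563 to 618 CPM. Of the other 4 tested markers, CDHR3, CAPS and TPPP3 had log2 fold changes of 1.07, 0.78 and 0.63, and MCIDAS one of -0.13. As stated above, the call of CAPS was lost with loess offsets and by DESeq2. Of 7 male germ cell markers, 4 (DAZL, PRM1, PRM2 and TNP1) had 0 counts and none was tested, with a summed level of 0.107 to 0.170 CPM in vehicle and 0.239 to 0.309 CPM in Liq. The 6 leukocyte markers summed to 0.481 to 0.681 CPM in vehicle and 0.319 to 0.562 CPM in Liq, with CD3E at 0. Of these, LYZ had 23 and 15 counts in vehicle and 8 and 9 in Liq and passed the filter on low counts through the vehicle samples only. The 3 endothelial markers summed to 50.8 to 53.3 CPM in vehicle and 44.7 to 48.2 CPM in Liq, nearly all of it CDH5. The part of other cells in the differences of the motile cilia genes was not tested.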

How the data were processed

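The authors isolated total RNA from ES2 cells after 24 h of vehicle or Liq and sequenced TruSeq RNA libraries made from it (2 samples per group). Per the labels, reads were aligned to hg19 with TopHat2 2.0.8b and counted per gene with HTSeq, and the authors deposited raw counts, not normalized, filtered or pooled. The strand setting is not given in the sources used here. Reads with several alignments (35.63% to 36.23% of those tallied) and reads in overlapping genes were not counted, which lowers genes with close copies. These tallies stayed out of library sizes and tests.

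The counts were fitted with edgeR 4.0.16 under R 4.3.3 (filterByExpr with a minimum count of 10, TMM, glmQLFit and glmQLFTest without a replicate block) across all genes, with Benjamini-Hochberg adjustment. Library totals on genes were 34573053 to 48933893. The SE is the log2 fold change divided by the square root of F. Counting intervals are exact conditional (Clopper-Pearson), use the summed counts of each group and cover counting error only. They describe the counts of members and are not a test, since the list was drawn up with the contrast known. The main design was the fit without the block. Alternatives were DESeq2 size factors, loess offsets (limma 3.58.1, span 0.3), other filters, the DESeq2 1.42.0 Wald test, the replicate block, each sample left out and other thresholds. The study names DESeq at 1.5-fold and a p-value without saying whether it was adjusted, and the adjusted one was used. The fits were tested on simulated counts. The members were chosen with earlier results of these data known. The other lists were drawn up after those results, and whether the results shaped the choice of their genes was not tested. The p-values printed for genes of the other lists are given with this limit. All 45 members are accounted for, with counts for those tested, and from each other list the called genes are named, or the 2 with the smallest p-value. Promoters are shown for up to 4 called members in order of the size of the log2 fold change. Coordinates are from GENCODE on GRCh37, and promoters from RefSeq.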

Additional observations from a re-analysis of the deposited data

How the results depend on the processing

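Across the table, 581 genes were called up and 293 down. Loess offsets along the expression level gave 356 up, the DESeq2 Wald test 339 up, and no fold-change threshold 1712 up and 1533 down. Of the motile cilia genes, 5 were called up and 2 down. Loess offsets left 3 called up, at least 10 counts in every sample left 3 up and 1 down, and the DESeq2 Wald test left 1 up (DNAH1) and 1 down (WDR66). DESeq2 gave no adjusted p-value for MYCBPAP, AK7 and CCDC39, and the filter of 10 counts in every sample removed these 3 genes, so their calls could not be compared there. Without 1 sample there were 4 up in each fit and 1 to 2 down, with 1 without vehicle replicate 2 or Liq replicate 2. Of the other motile cilia genes, 6 were called up and 1 down. The DESeq2 Wald test left 3 up, no fold-change threshold gave 4 down, and the fits without 1 sample gave 3 to 5 up and 1 to 2 down, with 3 up without vehicle replicate 1 and 2 down without Liq replicate 2. For intraflagellar transport and primary cilium genes, the count of 1 up became 0 with loess offsets and with DESeq2, 0 to 1 without 1 sample (0 without vehicle replicate 1 or Liq replicate 2), and 7 up and 1 down with no fold-change threshold. For multiciliation regulators, no fold-change threshold gave 1 up and 1 down in place of 0. The cause of these shifts was not tested, except that a threshold or filter changes what can be called by its construction. The median log2 fold change of the tested members stayed between 0.14 and 0.23, and no called member or called gene of the 3 other ciliary lists changed direction. The alternatives were fitted across the whole table, but results under them are not given for marker genes outside the ciliary lists.

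The replicate block gave 601 genes up and 297 down, and the same 5 members up and 2 down. Samples with the same number shared only that number, with a correlation of 0.0483 between their deviations from the group means. Depth limits the low genes, for which 3 counts correspond to 0.0598 to 0.0844 CPM.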

Other observations

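Among the genes listed as markers of OCa lines, PAX8, a transcription factor of the Müllerian epithelium, had 49 and 46 counts in vehicle and 12 and 29 in Liq, with a log2 fold change of -1.34 (SE of 0.31, adjusted p = 0.002137 from edgeR). WT1 had 168 and 181 counts in vehicle and 98 and 140 in Liq, with a log2 fold change of -0.68 (SE of 0.16, adjusted p = 0.002849 from edgeR). Both were called down, and after scaling all Liq values lay below all vehicle values. The other 4 tested genes of that list were not called. KRT7 had a log2 fold change of 0.51 (adjusted p = 1.081e-05 from edgeR) and KRT8 one of 0.13 (adjusted p = 0.3181 from edgeR), while KRT18 had one of -0.24 (adjusted p = 0.01322 from edgeR) and VIM one of -0.28 (adjusted p = 0.0003409 from edgeR). CDHR3, a cadherin of ciliated airway cells, had 64 and 54 counts in vehicle and 125 and 144 in Liq, with a log2 fold change of 1.07 (SE of 0.20, adjusted p = 0.000212 from edgeR).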
